A study of Mus musculus with 18 samples.

Results

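The mitochondrial carrier family Slc25 was examined as the 41 genes, of 20358 measured, whose symbol in the probe annotation begins with Slc25a. The measurements came from 18 Affymetrix Mouse Gene 1.0 ST arrays of fat, liver and skeletal muscle from 6 male FVB/N mice aged 10 weeks, 3 MKR and 3 wild-type (WT), with 1 array per tissue of each mouse. MKR mice carry a mutated IGF-1 receptor expressed from the muscle creatine kinase promoter in skeletal muscle and are used as a model of type 2 diabetes, so that the transgene is not aimed at fat or liver. All mice had free access to the same rodent diet. Values are log2 intensities, obtained as 2 to the power of the deposited value because the deposited range (1.52 to 3.82) is that of log2 values transformed to log2 a second time, which was inferred and not stated by the authors. Each gene is the mean of the probe sets that carry its symbol alone, a median of 9 per member (1 to 20). Differences between genes in this level are not read because probes differ in brightness, apart from a rough reference for background. Intervals are 95% intervals of the limma fit and adjusted p-values are Benjamini-Hochberg values over all 20358 genes, with calls at 0.05.

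Mitochondrial carriers are small proteins of the inner mitochondrial membrane that exchange nucleotides, phosphate, amino acids, carboxylates, carnitine esters and cofactors between cytosol and matrix. They set which metabolites enter and leave the organelle, and several exist as related pairs that serve the same substrate in different tissues. In muscle the family exports ATP and feeds reducing equivalents to respiration, in liver it serves the urea cycle and gluconeogenesis, and in fat it exports citrate for fatty acid synthesis.

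The labelled tissues carried their own markers: 8 of 8 muscle genes were highest in WT muscle, 8 of 8 liver genes in WT liver and 8 of 8 adipocyte genes in WT fat. The muscle arrays differed among themselves within each genotype. Their 7 slow fibre markers averaged 7.93 to 9.8 in MKR and 8.24 to 10.1 in WT muscle. Their liver markers averaged 5.43 to 6.47 in MKR and 5.45 to 6.64 in WT muscle. The part of such differences in the muscle values below was not tested. The mouse Igf1r probe sets, which read the receptor targeted in the MKR mice only as far as they hybridise to the transgene, lay at 8.53, 8.32 and 8.51 in MKR muscle and at 6.75, 6.14 and 6.42 in WT muscle (log2 change 2.02, SE 0.52, adjusted p = 0.169). The fat array of MKR replicate 1 stood apart. Its 20 epididymis markers averaged 10.2 against 4.85 to 5.1 in the other 5 fat arrays, and 19 of the 20 were above all of those arrays, while its adipocyte markers averaged 9.36 against 10.56 to 10.79. Its Igf1r value was 9.07 against 6.07 to 6.97 in the other 5 fat arrays. The 6 groups share 1 estimate of the spread, so this array also enters the tests in liver and muscle. For Igf1r the SD was 1.69 in MKR fat, 0.12 in MKR muscle and 0.31 in WT muscle, and its change without this array is not given here. Values are from all arrays unless they are given without this one.

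In WT mice the family was strongly divided between the tissues. Of the 41 members 35 passed the test in at least 1 of the 3 tissue comparisons and 6 passed in all 3. Between muscle and liver 27 members differed, 12 of them higher in muscle and 15 lower, which is 65.9% of the family against 40.4% of all genes (21.5% higher, 18.9% lower). Between fat and liver 23 differed, 7 higher and 16 lower in fat, or 56.1% against 35.4% of all genes (19% higher, 16.5% lower). Between muscle and fat 20 differed, 9 higher and 11 lower in muscle, against 37.8% of all genes (18.3% higher, 19.5% lower). A member was placed in a tissue when it was higher there than in both other tissues at an adjusted p under 0.05, by at least 1 on the log2 scale, with its 3 arrays above the other 6. By this rule 4 members were high in muscle (9.76% of the family, 4.58% of all genes), 4 in liver (9.76%, 5.18% of all genes) and 1 in fat (2.44%, 2.98% of all genes). By the mirrored rule 5 were low in muscle (12.2%, 2.35% of all genes), 2 low in liver (4.88%, 3.07%) and 1 low in fat (2.44%, 0.707%), and 26 met neither rule. The shares of all genes include genes that may read background in every tissue, and shares without such genes are not given here. In these bulk tissues fewer cells of a type and less RNA per cell cannot be told apart.

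**Figure D1:**
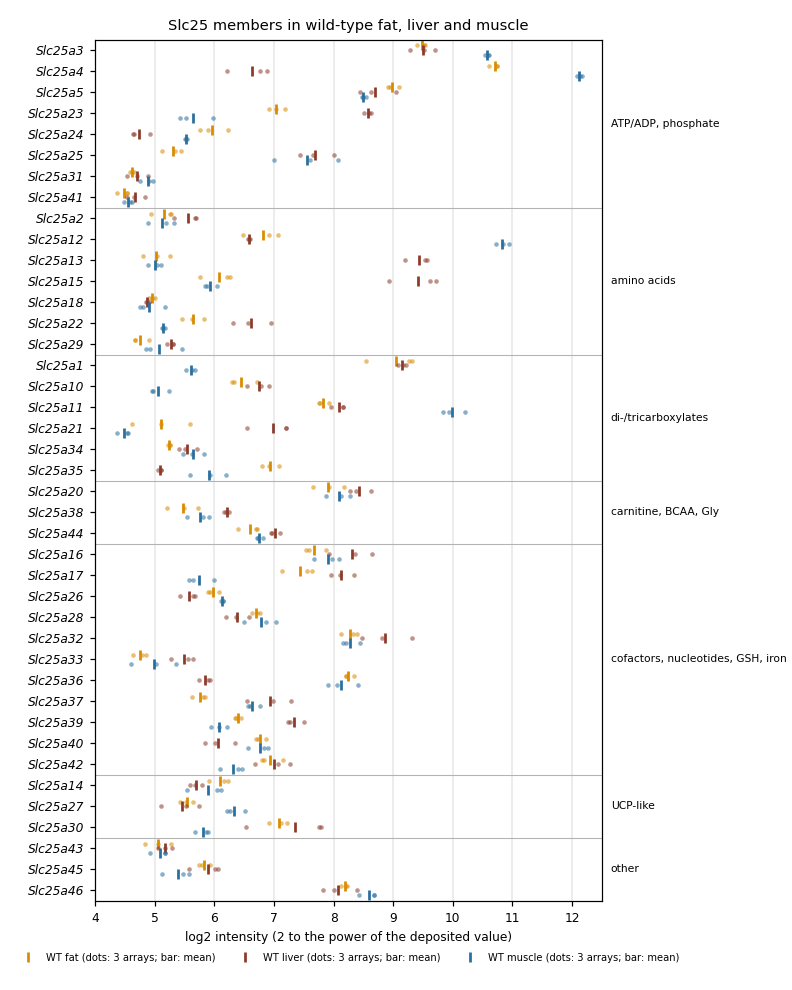
Log2 intensity (x axis) of the 41 members (y axis, grouped by what they carry) in WT fat, liver and muscle, with a dot for each of 3 arrays and a bar for the mean. Slc25a4 reaches 12.12 in muscle and 6.63 in liver, and Slc25a13 reaches 9.44 in liver against 5.03 in fat and 5.01 in muscle.

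The promoter windows of the 4 members with the widest range between WT tissues are shown: Slc25a4 and Slc25a12, high in muscle, Slc25a13, high in liver, and Slc25a1, low in muscle. Slc25a15, which is not shown, had nearly the range of Slc25a1 (3.5 against 3.54). The sequences are from RefSeq on GRCm38.p6, run 5′ to 3′ on the gene's strand from 250 bases before to 50 bases after the annotated start, and capitals mark the GC box GGGCGG, the box CCAAT and the E-box CACGTG on either strand. Slc25a4 lies at chr8:46211013-46211312, Slc25a12 at chr2:71367706-71368005, Slc25a13 at chr6:6217124-6217423 and Slc25a1 at chr16:17928170-17928469, all on the minus strand.
Slc25a4: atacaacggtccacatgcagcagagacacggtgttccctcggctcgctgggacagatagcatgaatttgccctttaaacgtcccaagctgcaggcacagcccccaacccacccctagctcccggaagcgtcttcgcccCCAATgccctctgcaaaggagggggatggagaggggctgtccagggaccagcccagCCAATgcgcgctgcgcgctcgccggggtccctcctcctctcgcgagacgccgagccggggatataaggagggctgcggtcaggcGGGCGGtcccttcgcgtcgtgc
Slc25a12: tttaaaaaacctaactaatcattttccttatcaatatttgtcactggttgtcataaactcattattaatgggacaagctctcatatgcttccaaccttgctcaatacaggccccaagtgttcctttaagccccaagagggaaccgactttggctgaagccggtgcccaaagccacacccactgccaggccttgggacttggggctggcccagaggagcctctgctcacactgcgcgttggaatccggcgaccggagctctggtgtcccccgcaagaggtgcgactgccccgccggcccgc
Slc25a13: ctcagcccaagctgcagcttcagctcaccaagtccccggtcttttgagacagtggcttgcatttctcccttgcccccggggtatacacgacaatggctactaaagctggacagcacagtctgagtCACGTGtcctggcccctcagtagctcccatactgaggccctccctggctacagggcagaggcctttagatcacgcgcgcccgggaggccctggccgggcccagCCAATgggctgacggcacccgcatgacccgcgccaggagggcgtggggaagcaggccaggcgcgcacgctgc
Slc25a1: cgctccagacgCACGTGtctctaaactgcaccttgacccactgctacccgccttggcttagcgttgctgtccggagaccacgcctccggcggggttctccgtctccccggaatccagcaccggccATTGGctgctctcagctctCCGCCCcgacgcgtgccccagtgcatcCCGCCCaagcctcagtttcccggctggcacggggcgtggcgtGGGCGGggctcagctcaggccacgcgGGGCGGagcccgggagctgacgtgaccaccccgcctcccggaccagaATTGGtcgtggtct

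Slc25a1 held GGGCGG at 4 places, CCAAT at 2 and CACGTG at 1, Slc25a4 held GGGCGG at 1 and CCAAT at 2, Slc25a13 held CCAAT at 1 and CACGTG at 1, and Slc25a12 held none of the 3 motifs. RefSeq windows were found for 32 of the 41 members, 41 windows in all, and GGGCGG occurred in 85.4% of them against 35.7% of all 32851 promoter windows, CCAAT in 48.8% against 37.4%, and CACGTG in 19.5% against 7.15%. These shares describe letters in the windows and not bound sites. A gene with several windows counts more than once, and the 32851 windows were not limited to genes measured here. The shares are therefore not read as a trait of the carriers.

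The carriers of adenine nucleotides and phosphate, which move ATP out of the matrix and ADP and phosphate into it, split by isoform. Slc25a4, the heart and muscle isoform of the ADP/ATP carrier, was at 12.08, 12.13 and 12.16 in the 3 WT muscle arrays, at 10.74, 10.61 and 10.74 in fat and at 6.89, 6.21 and 6.77 in liver. No arrays of different tissues overlapped, and the gene was 45.2-fold higher in muscle than in liver (log2 difference 5.50, SE 0.14, adjusted p = 3.5e-15) and 2.69-fold higher than in fat (1.43, SE 0.14, adjusted p = 4.2e-07). Fat was itself 16.8-fold above liver (4.07, SE 0.14, adjusted p = 3.5e-13), so that Slc25a4 was the member with the widest range and the only one both high in muscle and low in liver.

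Slc25a5, the more general ADP/ATP carrier, was nearly level, at 8.92, 8.94 and 9.09 in fat, 9.04, 8.44 and 8.63 in liver and 8.54, 8.47 and 8.50 in muscle. Only muscle against fat passed the test (-0.48, SE 0.17, adjusted p = 0.0364), with adjusted p-values of 0.231 for fat against liver and 0.41 for muscle against liver. Its value rests on 1 probe set, because 7 others also carry the symbol of Gm5560, and cross-hybridisation between the closely similar Slc25a4 and Slc25a5 was not tested. Slc25a31, the testis isoform, stayed between 4.53 and 4.98 in all 9 WT arrays and passed no tissue test, at the level of genes of epididymis and sperm in liver and muscle, whose 95th percentile was 5.63.

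Slc25a3, the phosphate carrier, was at 10.61, 10.59 and 10.54 in muscle against 9.29 to 9.70 in liver and fat together. All muscle arrays lay above the rest, with 1.09 over fat (SE 0.11, adjusted p = 6.2e-07) and 1.08 over liver (SE 0.11, adjusted p = 3.9e-07), while fat and liver differed by -0.01 (SE 0.11, adjusted p = 0.951). With the median in place of the mean of its 10 probe sets the excess over fat was 0.54 and did not pass (adjusted p = 0.0722, with a range of 1.35e-08 to 0.0722 over all settings run).

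The ATP-Mg/phosphate carriers, which adjust the adenine nucleotide pool of the matrix, had 4 measured members. Slc25a23 was at 8.59, 8.51 and 8.62 in liver, 7.19, 6.91 and 7.03 in fat and 5.98, 5.43 and 5.52 in muscle, a stepwise order in which each step passed the test (fat minus liver -1.53, adjusted p = 1.6e-06, and muscle minus fat -1.4, adjusted p = 4.7e-06). Slc25a25 was at 8.0, 7.43 and 7.65 in liver and 7.60, 8.08 and 7.0 in muscle, which overlapped (-0.13, SE 0.25, adjusted p = 0.73), and at 5.34, 5.44 and 5.12 in fat, below liver (-2.39, adjusted p = 9.7e-07) and below muscle (muscle minus fat 2.26, adjusted p = 2.1e-06). Slc25a24 had its highest mean in fat, 5.96 ± 0.25 (SD, n = 3), against 5.52 ± 0.02 in muscle and 4.73 ± 0.16 in liver, and both fat and muscle were above liver (1.23 and 0.79, adjusted p = 8.5e-05 and 0.00323). Slc25a41 passed no tissue test and lay between 4.37 and 4.84. Liver was thus the highest tissue of Slc25a23 and fat the lowest of Slc25a25, while fat and muscle could not be ordered for Slc25a24 (adjusted p = 0.0918).

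**Figure D2:**
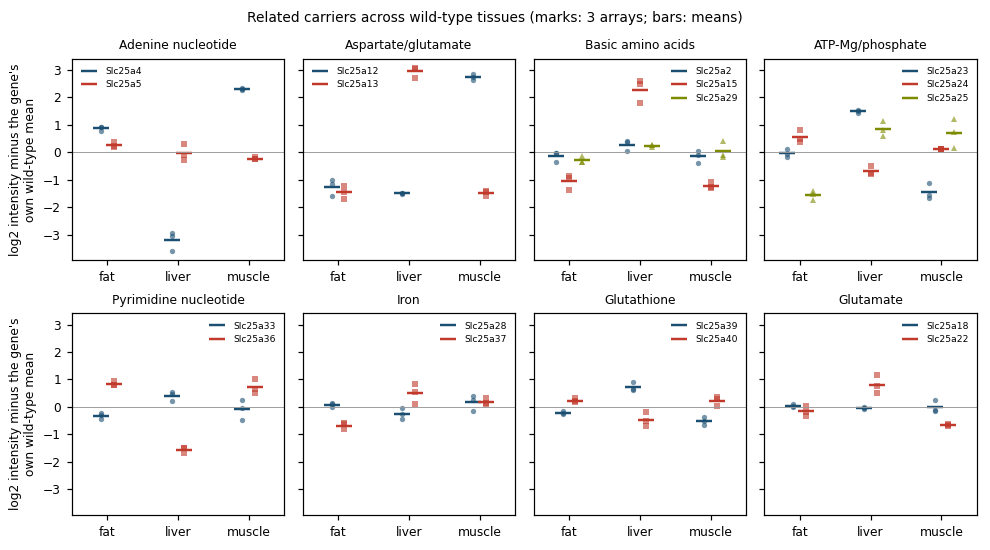
Each mark is 1 WT array, plotted as log2 intensity minus the gene's own mean over the 3 WT tissues (y axis) for 8 sets of related carriers by tissue (x axis), with bars at the tissue means. Slc25a12 and Slc25a13 are high in muscle and in liver respectively, and Slc25a4 spans 5.50 while Slc25a5 spans 0.48.

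The aspartate/glutamate carriers, which drive the malate-aspartate shuttle and supply cytosolic aspartate, were the clearest exchange of paralogs. Slc25a12 (aralar) was at 10.94, 10.84 and 10.72 in muscle, at 6.92, 7.07 and 6.48 in fat and at 6.60, 6.57 and 6.59 in liver. It was 16.1-fold higher in muscle than in fat (4.01, SE 0.14, adjusted p = 9.2e-13) and 19-fold higher than in liver (4.25, SE 0.14, adjusted p = 1.6e-13), whereas fat and liver overlapped (0.24, adjusted p = 0.227). Slc25a13 (citrin), the liver form, was at 9.53, 9.20 and 9.57 in liver, 5.04, 5.25 and 4.80 in fat and 5.10, 4.89 and 5.04 in muscle. It was 21.2-fold higher in liver than in fat (adjusted p = 9.7e-10) and 21.5-fold higher than in muscle (adjusted p = 4.9e-10), and fat and muscle differed by -0.02 (SE 0.27). These values rest on 19 and 20 probe sets. The Slc25a13 means in fat and muscle, 5.03 and 5.01, lay below the reference of 5.63 and may be background.

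Among the carriers of basic amino acids, Slc25a15, the ornithine/citrulline exchanger of the urea cycle, was at 9.61, 8.93 and 9.72 in liver against 5.76 to 6.27 in fat and 5.84 to 6.05 in muscle. The liver arrays were 10.1-fold above fat (adjusted p = 9.1e-10) and 11.3-fold above muscle (adjusted p = 2.6e-10), and fat and muscle overlapped (adjusted p = 0.58). Its relatives Slc25a2 and Slc25a29, carriers of ornithine and of arginine and lysine, stayed below 5.63 on average in every group. Slc25a29 was lower in fat than in liver (-0.52, SE 0.14, adjusted p = 0.00565), and Slc25a2 passed no tissue test. The urea cycle enzymes themselves were lower in fat than in liver for 5 of 6 genes and lower in muscle than in liver for 5 of 6, with median differences of -4.67 and -4.95. Of these 6, Ass1 averaged only 4.47 in WT liver, below 5.63, and may read background. Of the glutamate carriers, Slc25a22 was stepwise higher in liver (6.61 ± 0.32) than in fat (5.64 ± 0.19) and muscle (5.14 ± 0.02, SD, n = 3), and each step passed (adjusted p = 5.9e-05 and 0.0146), while Slc25a18 lay between 4.75 and 5.18 in WT arrays with no call.

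Of the carriers of di- and tricarboxylates, Slc25a1, which exports citrate for fatty acid synthesis, was at 9.26, 8.54 and 9.32 in fat and 9.22, 9.16 and 9.08 in liver, which overlapped (-0.11, SE 0.19, adjusted p = 0.706). In muscle it was at 5.52, 5.62 and 5.68, 10.8-fold below fat (-3.43, SE 0.19, adjusted p = 3.7e-10) and 11.7-fold below liver (-3.54, SE 0.19, adjusted p = 8.7e-11). Slc25a10, the dicarboxylate carrier, followed the same order at 6.45 ± 0.23 in fat, 6.75 ± 0.19 in liver and 5.06 ± 0.16 in muscle (SD, n = 3), with muscle below both (adjusted p = 4.2e-05 and 3.2e-06). Of 6 genes for citrate use and lipogenesis 4 were lower in muscle than in fat and 4 lower than in liver.

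Slc25a11, the oxoglutarate/malate carrier and the other membrane component of the malate-aspartate shuttle, ran the opposite way, at 10.20, 9.84 and 9.94 in muscle against 7.76 to 7.92 in fat and 7.95 to 8.16 in liver. It was 4.52-fold higher in muscle than in fat (2.18, SE 0.15, adjusted p = 8e-09) and 3.75-fold higher than in liver (1.91, SE 0.15, adjusted p = 1.9e-08). Slc25a12 and Slc25a11 were thus both muscle-high, and 5 of 6 enzymes of the malate-aspartate and glycerol phosphate shuttles were higher in muscle than in fat, among them Got1 by 4.36 (adjusted p = 2.8e-09) and Mdh2 by 1.12 (adjusted p = 2.3e-05). Against liver 3 of the 6 were higher in muscle.

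Slc25a21, the oxodicarboxylate carrier of lysine and tryptophan breakdown, was at 7.2, 6.55 and 7.21 in liver, 5.60, 5.10 and 4.62 in fat and 4.37, 4.55 and 4.53 in muscle, with liver above fat (fat minus liver -1.88, SE 0.40, adjusted p = 0.00138). Slc25a35, an orphan carrier, was the only member placed in fat, at 6.80, 6.91 and 7.09 against 5.05, 5.10 and 5.11 in liver and 6.20, 5.93 and 5.60 in muscle. Its excess over muscle was 1.02 (SE 0.15, adjusted p = 4.4e-05), so that it met the limit of 1 narrowly, and it was -0.19 for muscle minus fat (adjusted p = 0.188, the highest of all settings run) when 3 probe sets shared with another gene were included. Without WT fat replicate 3 or WT muscle replicate 3 no member was placed in fat. Slc25a34, its orphan relative, ranged over only 0.40 between tissues.

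Slc25a20, the carnitine/acylcarnitine carrier that admits long-chain fatty acids for oxidation, differed little between WT tissues, at 8.37, 8.28 and 8.63 in liver, 8.28, 8.13 and 7.87 in muscle and 7.65, 7.92 and 8.17 in fat. Only fat against liver passed (-0.51, SE 0.18, adjusted p = 0.0381). The enzymes on either side of it did divide by isoform: Cpt1b was 3.68 higher in muscle than in fat (adjusted p = 2.4e-07) and Cpt1a was lower in muscle than in liver (-3.83, adjusted p = 1.1e-10). Slc25a44, the carrier of branched-chain amino acids known from brown fat, passed no tissue test, with means of 6.60, 7.01 and 6.75 in fat, liver and muscle. Slc25a38, the glycine carrier that feeds heme synthesis, was highest in liver (6.21 ± 0.04, SD, n = 3), above fat (fat minus liver -0.73, adjusted p = 4.4e-04) and above muscle (muscle minus liver -0.45, adjusted p = 0.0142).

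Of the carriers of cofactors, nucleotides, glutathione and iron, Slc25a36, a pyrimidine nucleotide carrier, was at 8.21, 8.35 and 8.21 in fat and 7.91, 8.06 and 8.41 in muscle but at 5.92, 5.90 and 5.74 in liver. Liver was 5.28-fold below fat (adjusted p = 6.1e-10) and 4.84-fold below muscle (adjusted p = 6.7e-10), whereas its relative Slc25a33 had its highest mean in liver, at 5.49 ± 0.19 (SD, n = 3), within the range of the reference genes. Slc25a17, the peroxisomal carrier of coenzyme A and other adenine nucleotides and a resident of another organelle, was at 6.0, 5.65 and 5.58 in muscle, 3.24-fold below fat and 5.24-fold below liver (adjusted p = 5.4e-07 and 3.6e-09). Slc25a39 and Slc25a40, both linked to mitochondrial glutathione import, ran in opposite directions: Slc25a39 was lower in fat than in liver (-0.95, adjusted p = 3.3e-06) and Slc25a40 was higher (0.70, adjusted p = 4.6e-04). Of the mitoferrins, which carry iron into the matrix, Slc25a37 was lower in fat than in liver (-1.18, adjusted p = 6.2e-06) and lower than in muscle (muscle minus fat 0.88, adjusted p = 1.3e-04), and Slc25a28 ranged over 0.41 with 1 call, muscle over liver (adjusted p = 0.0429). Slc25a16, Slc25a26, Slc25a32 and Slc25a42, linked to coenzyme A, S-adenosylmethionine, folate or FAD and coenzyme A respectively, ranged over 0.56 to 0.68 between tissues.

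Among the members that resemble uncoupling proteins, Slc25a30 was lower in muscle than in fat and liver (-1.28 and -1.55, adjusted p = 0.0192 and 0.00492), Slc25a27 was higher in muscle than in both (0.79 and 0.87, adjusted p = 0.00105 and 3.6e-04), and Slc25a14 ranged over 0.41. Slc25a46, a carrier relative of the outer membrane that takes part in mitochondrial fusion and fission, was 0.40 higher in muscle than in fat (adjusted p = 0.0206) and 0.51 higher than in liver (adjusted p = 0.00358). Slc25a45 was lower in muscle than in both other tissues (-0.42 and -0.49, adjusted p = 0.0309 and 0.0122), and Slc25a43 ranged over 0.11. The 7 members whose mean stayed below the reference of 5.63 in all 6 groups were Slc25a2, Slc25a18, Slc25a29, Slc25a31, Slc25a33, Slc25a41 and Slc25a43, and their values may be background because detection calls were not analysed here. The same limit holds for other members in single WT tissues, such as Slc25a1 in muscle (5.61), Slc25a21 in fat and muscle (5.11 and 4.48) and Slc25a24 in liver and muscle (4.73 and 5.52). Their differences may be measured against background. The reference is only a rough guide, because it rests on the probe sets of 29 other genes, whose means in WT liver and muscle ran from 4.33 to 6.21. Slc25a23 and Slc25a41 are neighbours with no protein-coding gene between them, as are Slc25a43 and Slc25a5, and Slc25a41 and Slc25a43 are among those 7 members.

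Carrier relatives with other symbols were compared in the same way. Ucp3 was at 8.79, 9.34 and 8.50 in muscle, 6.93, 7.14 and 7.07 in fat and 4.89, 5.14 and 4.81 in liver, and each step passed (adjusted p = 1.3e-04 and 3.2e-05). Ucp2 was 2.48 higher in fat than in liver (adjusted p = 2.8e-09) and level between muscle and liver (0.03, adjusted p = 0.923), and Ucp1, the uncoupling protein of brown fat, stayed between 4.13 and 4.64 in all 18 arrays. Mpc2, a subunit of the pyruvate carrier, was 1.03 higher in muscle than in fat (adjusted p = 0.0026) and Mpc1 passed no tissue test. Mtch1, a carrier relative of the outer membrane, was 0.53 higher in fat than in liver (adjusted p = 0.00586) and lower in muscle than in fat (-0.45, adjusted p = 0.0159). Of 11 genes of mitochondrial content, such as Cs and Vdac1, 8 were higher in muscle than in fat with a median difference of 1.05, while the median difference of the 41 carriers between these tissues was near 0, with 20 means higher and 21 lower. Of 12 genes for import and insertion of carriers, 5 were higher and 1 lower in muscle than in fat.

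MKR was then compared with WT within each tissue. No member passed the limma test in fat, liver or muscle, 0 of 41 in each, with or without MKR fat replicate 1. Few genes of any kind passed: 0.0393% of all genes in fat, 0.0344% in liver and 0.201% in muscle, and 0.152%, 0.0835% and 0.712% without that array. At an unadjusted p under 0.05, 1 member was higher and 7 lower in MKR fat, against 3.53% and 4.25% of all genes, and without MKR fat replicate 1 these counts were 3 and 8, against 4.99% and 4.99%. In liver 2 were higher and 1 lower, against 2.49% and 2.51%, and in muscle 0 were higher and 8 lower, against 4.64% and 5.89%. At the study's own thresholds, an unadjusted p under 0.05 with a change of over 1.5-fold, 0 members were higher and 2 lower in fat (Slc25a1 and Slc25a20), against 0.688% and 0.968% of all genes, 0 and 1 in liver (Slc25a2), against 0.501% and 0.206%, and 0 and 0 in muscle, against 0.432% and 0.85%. Without MKR fat replicate 1 there were again 0 higher and 2 lower in fat, against 0.648% and 1.67%, but these were Slc25a1 (1.56-fold) and Slc25a42 (1.55-fold), and Slc25a20 was at 1.38-fold. The median difference over the family was -0.14 in fat, 0.07 in liver and -0.08 in muscle, and -0.05 in fat without MKR fat replicate 1, where the median over all genes was 0.02. MKR means were lower for 27, 14 and 23 of the 41 members in fat, liver and muscle, and for 28 in fat without that array. The share of all genes with a lower MKR mean was not counted, so counts of means, here and below, are not read as a trait of the listed genes. All 3 MKR arrays lay below all 3 WT arrays for 9 members in fat, 1 in liver and 8 in muscle, against 5.87%, 5.31% and 11.3% of all genes, and above them for 2, 1 and 1, against 5.85%, 4.11% and 10.5%.

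**Figure D3:**
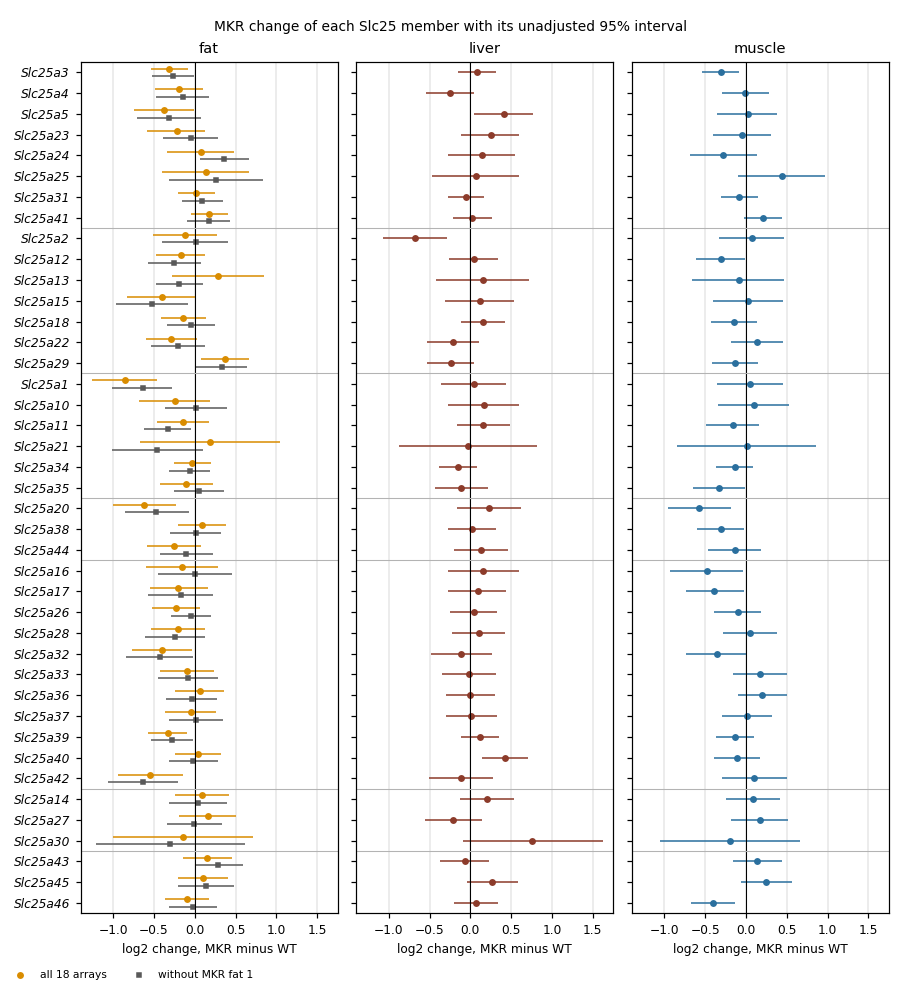
Log2 change of MKR minus WT (x axis) with its unadjusted 95% interval for each member (y axis) in fat, liver and muscle, from all 18 arrays (round points in every panel) and, for fat, without MKR fat replicate 1 (grey squares). The changes run from -0.86 to 0.37 in fat, and none passed the test after adjustment.

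In fat the smallest p belonged to Slc25a1, the citrate carrier, which was at 7.75, 8.44 and 8.35 in MKR mice and at 9.26, 8.54 and 9.32 in WT mice. All MKR arrays lay below all WT arrays, with WT replicate 2 close to the MKR values and MKR replicate 1 the lowest. The log2 change was -0.86 (SE 0.19, interval -1.26 to -0.46, adjusted p = 0.225), and -0.64 (interval -1.01 to -0.28, adjusted p = 0.174) without MKR replicate 1, and all 9 probe sets were lower in MKR mice. Leaving out 1 array changed the call, since without WT fat replicate 2 the change was -1.11 and passed (adjusted p = 0.0206, with a range of 0.0206 to 0.939 over all settings run). In liver and muscle the same gene gave 0.04 (interval -0.36 to 0.44) and 0.05 (interval -0.35 to 0.45), and the difference between fat and muscle in the MKR change was -0.91 (adjusted p = 0.356), and -0.70 (adjusted p = 0.291) without that array.

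None of the 6 genes for citrate use and lipogenesis passed with all arrays. Means of all 6 were lower in MKR fat, with a median of -1.03, and means of all 6 were higher in MKR liver, with a median of 0.78, with 0 of 6 called in each tissue. Acacb, which makes malonyl-CoA, was at 5.79, 7.13 and 7.57 in MKR fat and 8.79, 8.39 and 8.93 in WT fat (-1.87, SE 0.33, adjusted p = 0.0672). Without MKR fat replicate 1 it was -1.36 (SE 0.22) and passed at an adjusted p of 0.0193, as 1 of the 6, and the median of the 6 was -1.08.

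Slc25a20, the carnitine/acylcarnitine carrier, was among the 4 smallest p-values in both fat and muscle. In muscle it was at 7.43, 7.36 and 7.77 in MKR mice and 8.28, 8.13 and 7.87 in WT mice, without overlap (-0.57, SE 0.18, interval -0.96 to -0.18, adjusted p = 0.271, and 0.139 without the fat array that stood apart). In fat it was at 7.0, 7.27 and 7.62 against 7.65, 7.92 and 8.17, again without overlap but with MKR replicate 3 just under WT replicate 1 (-0.62, interval -1.0 to -0.23, adjusted p = 0.451, and -0.47, adjusted p = 0.391, without MKR replicate 1). In liver the MKR arrays, at 8.87, 8.39 and 8.72, overlapped the WT arrays, at 8.37, 8.28 and 8.63 (0.23, interval -0.16 to 0.62). The muscle change minus the liver change was -0.81 and did not pass (adjusted p = 0.33). Of its 10 probe sets 10 were lower in MKR fat and 9 in MKR muscle. None of 5 enzymes of the carnitine shuttle passed in any tissue. Cpt2, which acts just inside the carrier, gave -0.69 in fat (adjusted p = 0.603) but -0.23 without MKR fat replicate 1 (adjusted p = 0.768), and -0.53 in muscle (adjusted p = 0.554).

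**Figure D4:**
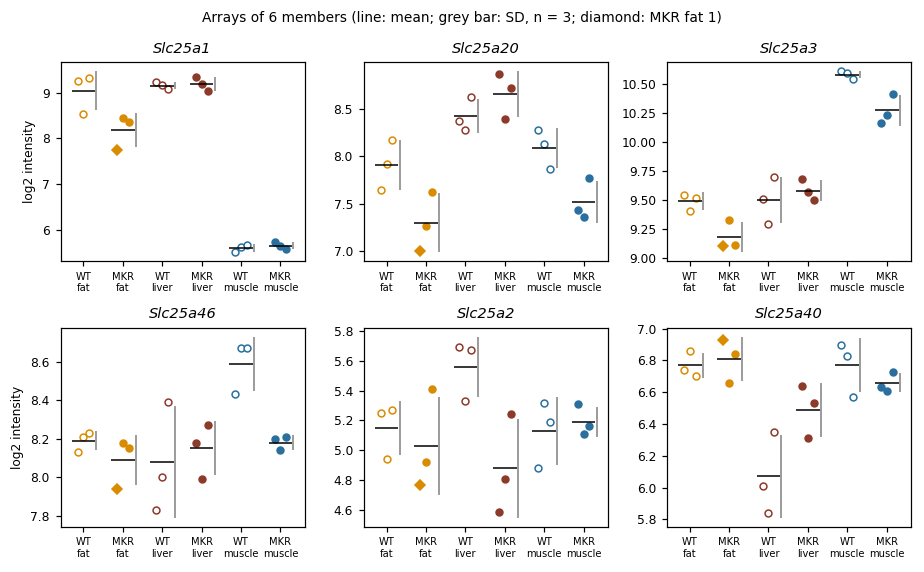
Log2 intensity (y axis) of 6 members in each array by group (x axis), with open points for WT, filled points for MKR, a diamond for MKR fat replicate 1, a line at the mean and a grey bar for the SD (n = 3). In muscle the MKR arrays of Slc25a20, Slc25a3 and Slc25a46 lie below the WT arrays, at means of 7.52, 10.27 and 8.18 against 8.09, 10.58 and 8.59.

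In muscle the smallest p with all arrays belonged to Slc25a46, at 8.2, 8.14 and 8.21 in MKR mice and 8.43, 8.67 and 8.67 in WT mice. The groups did not overlap and all 11 probe sets were lower (-0.41, SE 0.13, interval -0.68 to -0.14, adjusted p = 0.265). Without MKR fat replicate 1 its adjusted p was 0.158, and Slc25a20 had the smallest unadjusted limma p in muscle (0.00317 against 0.00437 for Slc25a46). For Slc25a46 fat gave -0.10 (-0.02 without MKR fat replicate 1) and liver 0.07. Slc25a3, the phosphate carrier, was at 10.16, 10.23 and 10.41 in MKR muscle against 10.61, 10.59 and 10.54 in WT muscle, also without overlap (-0.31, interval -0.54 to -0.08, adjusted p = 0.315, and 0.224 without MKR fat replicate 1). Its 10 probe sets were not uniform, with 8 lower and 2 higher in MKR muscle, from -1.49 to 0.19. Slc25a16 was at 7.83, 7.34 and 7.11 against 7.97, 8.09 and 7.68, where MKR replicate 1 lay inside the WT range (-0.48, adjusted p = 0.429, and 0.281 without MKR fat replicate 1). Of the carriers that define muscle, Slc25a12 was lower without overlap, at 10.52 ± 0.05 against 10.83 ± 0.11 (SD, n = 3). Its change was -0.31 (adjusted p = 0.455, and 0.337 without MKR fat replicate 1), and Slc25a4 gave -0.01 with an interval of -0.30 to 0.28. Slc25a3, Slc25a20 and Slc25a32, the folate or FAD carrier, were the members with all MKR arrays below all WT arrays in both fat and muscle, 3 of 41 or 7.32%, against 1.02% of all genes, and the fat and muscle arrays come from the same mice. These shares are with MKR fat replicate 1. The 3 members also met this rule without it, but the matching share of all genes is not given here. In fat alone that share went from 5.87% to 11.9% without the array.

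Elsewhere in fat, Slc25a42, a coenzyme A carrier, was at 6.55, 6.44 and 6.16 in MKR mice against 6.80, 7.16 and 6.84 in WT mice, without overlap (-0.55, adjusted p = 0.504, and -0.63, adjusted p = 0.251, without MKR replicate 1). Slc25a39 was at 5.94, 6.07 and 6.15 against 6.35, 6.37 and 6.44, also without overlap (-0.33, adjusted p = 0.504, and -0.28, adjusted p = 0.458, without MKR replicate 1). Slc25a24 was at 5.45 in MKR replicate 1 and at 6.14 and 6.51 in the other MKR arrays against 6.23, 5.89 and 5.76 in WT mice, so that its change was 0.07 with that array and 0.36 (adjusted p = 0.39) without it. These 3 carriers serve different substrates, and none passed the test.

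In liver the smallest p belonged to Slc25a2, at 4.59, 4.81 and 5.24 in MKR mice and 5.69, 5.33 and 5.67 in WT mice, without overlap (-0.68, SE 0.18, interval -1.07 to -0.29, adjusted p = 0.465). All these values are within the range of the reference genes, and the gene has 4 probe sets. Slc25a40 was at 6.64, 6.31 and 6.53 against 6.01, 5.84 and 6.35, overlapping by WT replicate 3 (0.42, interval 0.14 to 0.70, adjusted p = 0.592). Slc25a5 was at 9.41, 9.04 and 8.88 against 9.04, 8.44 and 8.63 (0.41, adjusted p = 0.921). Slc25a30 had the largest change in size, 0.76, with the widest spread, at 7.07, 8.05 and 9.24 against 7.79, 7.76 and 6.53 (SE 0.40, interval -0.09 to 1.62). Without MKR fat replicate 1 the adjusted p-values of Slc25a2, Slc25a40, Slc25a5 and Slc25a30 in liver were 0.21, 0.394, 0.664 and 0.772. The 4 liver-high carriers Slc25a13, Slc25a15, Slc25a21 and Slc25a23 gave 0.15, 0.12, -0.03 and 0.25, the last with all MKR arrays above all WT arrays.

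By role, no group of carriers held a member that passed in any tissue. With all arrays the lowest adjusted p of a group ran from 0.225 for the di- and tricarboxylate carriers in fat upward. Without MKR fat replicate 1 that value was 0.174, and the lowest was 0.139, for Slc25a20 in muscle. The 3 carriers of carnitine, branched-chain amino acids and glycine all had lower means in MKR muscle (median -0.31) and all had higher means in MKR liver (median 0.13), where Slc25a20, Slc25a44 and Slc25a38 gave 0.23, 0.13 and 0.02. In fat they gave -0.62, -0.26 and 0.09, and -0.47, -0.11 and 0.01 without MKR fat replicate 1. Of the 11 carriers of cofactors, nucleotides, glutathione and iron, 9 had lower means in MKR fat, 4 of them without overlap, against 5.87% of all genes, and without MKR fat replicate 1 these were 10 and 4, against 11.9%. Slc25a44 gave -0.14 in muscle, and its interval spanned 0 in each tissue. No difference of the MKR change between tissues passed for any member, against 0.0% of all genes for fat minus liver, 0.103% for fat minus muscle and 0.0737% for muscle minus liver.

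Among the carrier relatives and partners, 0 passed in MKR against WT apart from Acacb in fat without MKR fat replicate 1. Ucp3 was at 5.34, 6.80 and 6.44 in MKR fat against 6.93, 7.14 and 7.07 in WT fat, with MKR replicate 1 lowest (-0.86, adjusted p = 0.533, and -0.43, adjusted p = 0.59, without it). Mtch2 gave -0.54 in fat (adjusted p = 0.399, and -0.36, adjusted p = 0.327, without that array). Mpc2 gave -0.74 in fat (adjusted p = 0.486, and -0.58, adjusted p = 0.43, without it) and -0.47 in muscle (adjusted p = 0.514). In the shuttles Gpd2 gave -1.10 in fat, 0.65 in liver and 0.45 in muscle (adjusted p = 0.389, 0.936 and 0.632), without overlap in each tissue, and -0.77 in fat without that array (adjusted p = 0.261). Mdh1 gave -0.32 in muscle (adjusted p = 0.394) and, of the iron-sulphur and heme enzymes, Nfs1 gave -0.54 in muscle (adjusted p = 0.211). Of the 11 mitochondrial content genes 10 had lower means in MKR fat and 9 in MKR muscle, with medians of -0.19 and -0.08, and for import and insertion these were 10 and 11 of 12, with medians of -0.09 and -0.08. Without MKR fat replicate 1 the fat counts were 10 of 11 and 9 of 12, with medians of -0.14 and -0.10. With all arrays the smallest adjusted p of these 2 lists was 0.424 for Ppargc1b in fat (0.39 without that array), and Timm22 in liver (0.30, adjusted p = 0.841) and Timm13 in muscle (-0.24, adjusted p = 0.487) were the first of the import list, and Ass1 in liver (0.95, adjusted p = 0.712) of the urea cycle. Ass1 averaged 5.42 in MKR liver and 4.47 in WT liver, below the reference of 5.63, so that its values may be background.

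The fat array of MKR replicate 1 also moved members of the family. It lay above all other 5 fat arrays for 11 members and below them for 19, so that 30 of 41 fell outside the range of the other 5. Over all genes the shares were 21.3% above and 33.5% below. Slc25a21 was at 6.58 in this array, 1.66 above the mean of the other 5, and Slc25a13 at 6.26, 1.31 above it, both members that are high in WT liver. With the array left out, the change of Slc25a13 in fat went from 0.28 to -0.19 (adjusted p = 0.847 and 0.718) and that of Slc25a21 from 0.19 to -0.46 (adjusted p = 0.953 and 0.624). On the low side, Slc25a1 at 7.75 lay below the mean of the others (-1.03), Slc25a10 at 5.70 gave -0.75 and Slc25a20 at 7.0 gave -0.73, so that the change of Slc25a10 went from -0.24 to 0.01. The liver markers of this array averaged 5.77 against 5.99 to 6.21 in the other 5, and the part of epididymis transcripts in these values was not tested. Without the array 12 members had all MKR arrays below all WT arrays in fat, against 11.9% of all genes, and 4 above, against 16.2%.

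**Figure D5:**
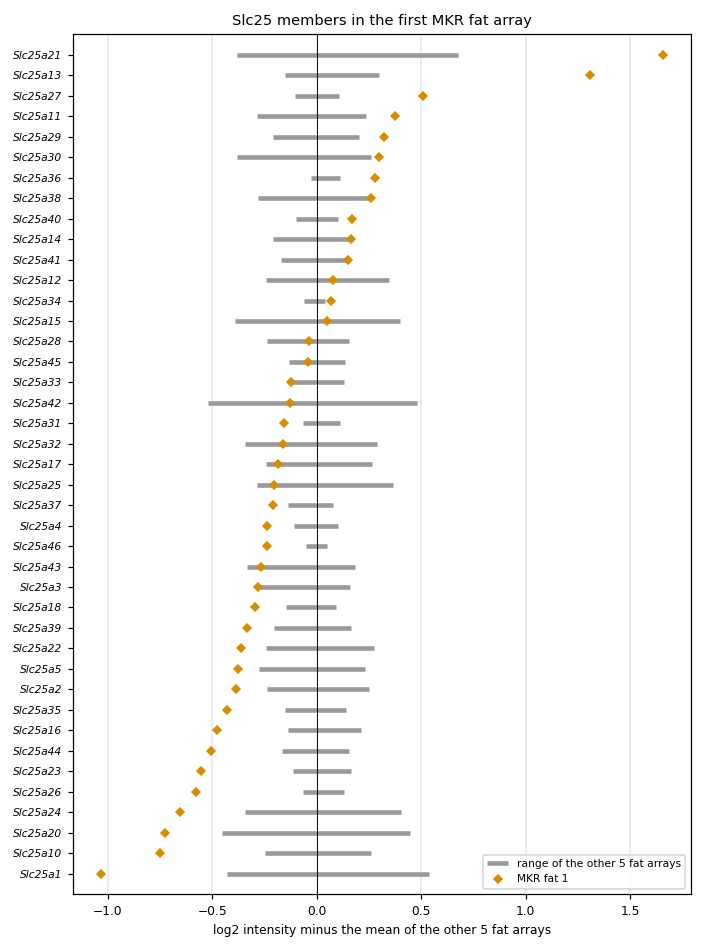
Log2 intensity of each member in MKR fat replicate 1 (diamonds) minus the mean of the other 5 fat arrays (x axis), with grey bars for the range of those 5 arrays. Slc25a21 and Slc25a13 lie 1.66 and 1.31 above that mean, and Slc25a1 lies at -1.03.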

How the data were processed

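Total RNA of 18 tissue samples was amplified and hybridised to 1 array each. The authors used RMA with quantile normalization (Partek 6.3) and then a log2 transformation; the genome build and probe annotation behind the deposited log2 values are not given in the sources used here. The table holds 241419 probe sets, of which 212138 have 1 gene symbol, 4672 several and 24609 none, and only the first kind was used. Of 20422 symbols 17626 were current, 2743 were updated by synonym and 53 were kept, which gave 20358 genes; names and the order of neighbours are from RefSeq for GRCm38.p6. Slc25a47, Slc25a48, Slc25a51, Slc25a53 and Slc25a54 stand under older symbols and entered only as an alternative.

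All 18 arrays were fitted in limma 3.58.1 (R 4.3.3) with 1 mean for each of the 6 groups, which share 1 estimate of the spread, then moderated by empirical Bayes, and p-values were adjusted by Benjamini-Hochberg within each contrast over every gene. The contrasts were MKR against WT in each tissue, each pair of WT tissues and the differences of the MKR change. The thresholds of the study's own test were run as an alternative. The scripts were tested on simulated data. Named genes were the members called, the 4 smallest p-values per tissue, the tissue-placed members, the related carriers and, of each partner list, the called genes or the smallest p. The rule, members and lists were chosen with earlier results of these data known. The number of arrays limits the precision. Replicate numbers belong to different mice in MKR and WT, while each mouse gave all 3 of its tissues: deviations of arrays from the same mouse correlated at a median of 0.09 in WT and 0.01 in MKR mice. Figures were drawn with matplotlib 3.10.9, and data were handled with pandas 2.3.3.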

Additional observations from a re-analysis of the deposited data

How the results depend on the processing

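A total of 33 settings were run, 18 that leave out 1 array each and 15 others. The count of members called in MKR against WT in fat was 1 without WT fat replicate 2 (0 to 1 over single arrays left out), 2 with array weights and 2 at the study's thresholds; in liver it was 1 at the study's thresholds, and 0 otherwise; in muscle it was 0 in every setting run. Differences of the MKR change gave 9 calls at the study's thresholds and 0 otherwise. These 9 are summed over the 3 differences between tissues, so that a member can count more than once. The share of all genes is not given here for them, nor for the calls in fat with array weights or without WT fat replicate 2. The count of members placed in fat was 0 with arrays centred on their median, with array weights and with several-symbol probe sets included, and 0 to 1 over single arrays left out. Members placed in muscle were 3 to 4 and in liver 4 to 5 over single arrays left out. Slc25a24 in fat turned to -0.17 when MKR fat replicate 3 was left out and to -0.03 when WT fat replicate 3 was, within a range of -0.17 to 0.36 over single arrays left out. With array weights Slc25a42 in fat passed (-0.65, adjusted p = 0.0411, over all settings 0.0411 to 0.939). Called members over all other settings were 21 to 30 for muscle against liver, 17 to 27 for fat against liver and 14 to 23 for muscle against fat; over single arrays left out they were 25 to 28, 17 to 24 and 16 to 22. With the replicate number as a block the counts were 0, 0 and 0 for MKR in fat, liver and muscle and 28, 23 and 20 for the WT contrasts, and with the mouse as a block for WT 27, 23 and 19, so that neither block moved a count by over 1.5 times. Placement by tissue was not computed for the values as deposited, whose differences are on another scale. The causes of these changes were not tested.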
